A study of Mus musculus with 15 samples.

Results

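The 10 genes studied here belong to the Notch pathway and were followed across the ChIP-seq lists of lens cells and lens: the receptors Notch1, Notch2 and Notch3, the ligands Jag1, Jag2 and Dll1, the DNA-binding protein Rbpj, and the target repressors Hes1, Hey1 and Heyl. They were chosen by name, as Notch genes of the lens epithelium and of the transition zone where its cells begin to form fibres, and make up 10 of 22342 protein-coding genes with an annotated start. The rule uses gene names and no measured value. Each gene was examined in a window made of its body in mm9 plus 50 kb on each side. A promoter is the 2 kb on either side of any protein-coding transcript start of the gene, and a region counted there when at least 1 bp overlapped.

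αTN4 is a mouse lens epithelial line transformed with SV40 T antigen. Control αTN4 cells were a stable line carrying a control shRNA, and Pax6 KD cells were a stable line carrying a lentiviral shRNA against Pax6 (the sh2 construct by the study's methods, which the labels do not name). Both lines had been infected with lentivirus and kept under puromycin. In control cells Pax6, RNA polymerase II (Pol2), H3K4me1, H3K4me2 and H3K4me3 were mapped, in Pax6 KD cells the 3 methylation marks, and in whole lenses of CD-1 mice at postnatal day 1 H3K4me2, which gives 9 lists with 1 per condition. The labels do not say how many lenses were pooled. The antibody fields of the Pax6 and Pol2 samples name each other's target, and the titles were followed. With 1 list per condition there was no replicate error and no test, so an effect of the knockdown cannot be told apart from a difference between 2 cell lines or 2 libraries. The knockdown itself was not measured by these lists.

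Notch receptors are cut after binding Jagged or Delta ligands on a neighbouring cell, and the freed intracellular domain joins Rbpj on DNA to switch on repressors of the Hes and Hey families. In the lens, Jagged1 on fibre cells signals to Notch in the anterior epithelium and helps hold back premature differentiation and keep the progenitor pool. H3K4me3 marks promoters, H3K4me1 lies mainly on enhancers and promoter flanks, and H3K4me2 lies on both.

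The labelled cell type was checked on markers. All 13 lens epithelial markers had promoter H3K4me2 in newborn lens, and 8 of 13 had promoter Pol2 in αTN4. Foxe3, Cdh1 and Krt18 of these 13 had neither promoter Pol2 nor promoter H3K4me2 in αTN4. Of 10 fibre markers 8 had lens promoter H3K4me2 and 1 had αTN4 promoter Pol2. The lens list also marked 3 of 5 vascular, 2 of 5 retinal and pigmented epithelial and 4 of 4 mesenchymal markers and 0 of 4 blood and immune markers, beside 66.8% of all genes, so of these lists only the mesenchymal share lay above that of genes in general. The lens sample was whole tissue by its label. In αTN4, promoter Pol2 lay at 3 of 4 mesenchymal, 1 of 4 blood and immune and 0 of 5 vascular markers. Over all genes promoter Pol2 was called at 48%. The lists held 17204 Pol2 peaks and 504 Pax6 peaks, and the H3K4me1 list of the KD cells was shorter than the control list (18417 against 38007 islands).

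The promoters fell into distinct states. Pol2 and H3K4me3 together lay at the promoters of Notch1, Notch2, Jag1, Rbpj, Hes1 and Hey1 in control αTN4. H3K4me3 without Pol2 lay at Notch3 and Dll1, and Jag2 and Heyl had no promoter region of any kind in αTN4 but carried H3K4me2 in newborn lens. Promoter Pol2 was thus called in 6 of 10 genes (95% Wilson interval 31.3 to 83.2%), beside 48% of all protein-coding genes, and together with H3K4me3 in the same 6, beside 46.4%. Promoter H3K4me3 was called in 8 of 10 in control cells and in the same 8 genes in KD cells (background 49.1% and 47.8%, with 1.56% of all genes marked in control only), and promoter H3K4me2 in 8 of 10 in both (58.2% and 57.1%). Lens H3K4me2 was called at all 10 promoters, beside 66.8% of all genes. H3K4me3 without Pol2 is the rarer state, with 2 of 10 genes here and 2.74% of all genes. Lens H3K4me2 at a promoter unmarked in control αTN4 was seen for 2 of 10 genes and for 10.5% of all genes. Intervals cover counting error only. With the 5′-most start alone, Notch1 and Rbpj would lose Pol2, H3K4me3, lens H3K4me2 and KD H3K4me2 (4, 6, 8 and 6 genes), since these marks lie at a later start. With 50% overlap, lens H3K4me2 was called at 9 promoters.

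**Figure D1:**
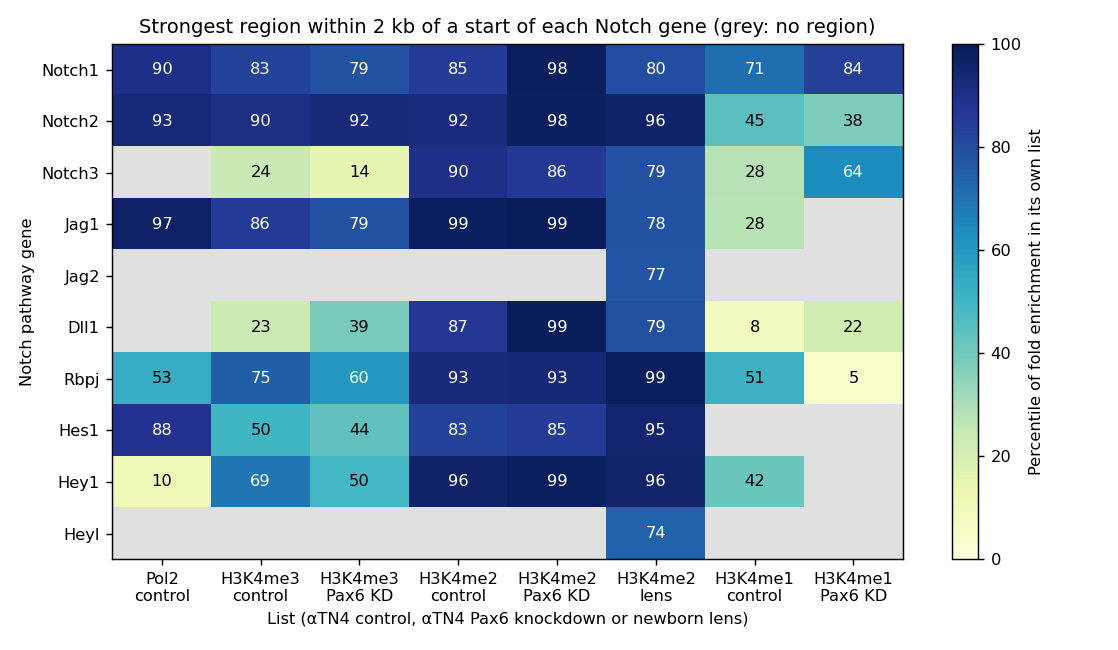
Strongest region at the promoter of each of the 10 Notch genes (rows) in 8 lists (columns). Numbers and colour give its percentile by fold enrichment within its own list, and grey means that no region was called. Jag2 and Heyl are grey in every αTN4 column and reach 77.3 and 73.7 in newborn lens, while Notch3 and Dll1 are grey for Pol2.

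No Pax6 peak lay in any of the 10 windows in control αTN4 (0 peaks, 0 of 10 genes), beside promoter peaks at 0.255% of all genes. Over all genes 96.5% had no Pax6 peak within 50 kb, so this share is near the background and is not particular to the Notch genes. The closest Pax6 peaks were 148 kb from Notch1, near Gpsm1 (chr2:26165492-26165755), and 206 kb from Notch2, near Phgdh (chr3:98159814-98160091). Next came Hey1 at 507 kb, Dll1 at 648 kb, Jag1 at 1140 kb, Jag2 at 1333 kb and Notch3 at 1754 kb. The nearest peaks to Heyl, Rbpj and Hes1 lay 6659, 15493 and 27614.5 kb away. In these cells the H3K4 methylation described below therefore lay at Notch genes without a called Pax6 peak in reach of 50 kb.

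Among 54 other genes of the pathway, a list fixed by name, 7 had a Pax6 peak within 50 kb, beside 3.48% of all genes. Among them were Ctbp2, which encodes a corepressor, Spen, a corepressor that binds Rbpj, Hes2, a Hes family repressor, Dner, a Notch ligand of neurons, and Dtx1 and Neurl1a, E3 ubiquitin ligases. At Ctbp2 the peak was at the promoter. Of those named, Ctbp2, Neurl1a and Spen had promoter Pol2 and H3K4me3 in αTN4, and Dner, Dtx1 and Hes2 had neither. Promoter H3K4me3 was called in 40 of the 54 (74.1%) in control and in the same 40 in KD cells, beside 49.1% and 47.8% of all genes. Promoter H3K4me2 was called in 47 and 45 (87.0% and 83.3%), beside 58.2% and 57.1%. Dner and the receptor gene Notch4 had it in control only. Promoter Pol2 was called in 37 of 54 (68.5%), beside 48%, and lens H3K4me2 in 53 of 54 (98.1%), beside 66.8%. Lens H3K4me2 without an αTN4 promoter region was found at 5 of the 54 (9.26%), near the 10.5% of all genes. Among the 10 it was found at Jag2 and Heyl.

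The 3 receptor genes differed at their promoters. Notch1 (chr2:26313423-26372183, minus strand) has 4 annotated starts, and Pol2 and H3K4me3 lay at the one at 26359342. Notch2 (chr3:97817461-97954290, plus strand) and Notch3 (chr17:32257765-32303825, minus strand) have 1 each. The sequences just upstream of the marked start are shown because they set the 2 Pol2-bearing receptor promoters beside the one without Pol2. They are RefSeq promoter sequences from the GRCm38.p6 table, each matched once and exactly to mm9, at chr2:26359345-26359544 (minus), chr3:97817261-97817460 (plus) and chr17:32303836-32304035 (minus), and stop before the first annotated exon base. Capitals mark CACNAG and CACGNG, boxes that Hes and Hey proteins can bind, searched on both strands.
Notch1: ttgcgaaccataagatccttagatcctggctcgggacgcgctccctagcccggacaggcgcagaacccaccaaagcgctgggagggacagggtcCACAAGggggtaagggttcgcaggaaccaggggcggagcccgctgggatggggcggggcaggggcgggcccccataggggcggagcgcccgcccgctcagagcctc
Notch2: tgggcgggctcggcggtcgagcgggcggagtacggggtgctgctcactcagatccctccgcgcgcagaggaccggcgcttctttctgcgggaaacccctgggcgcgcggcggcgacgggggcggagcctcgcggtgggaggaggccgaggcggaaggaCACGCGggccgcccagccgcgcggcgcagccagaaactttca
Notch3: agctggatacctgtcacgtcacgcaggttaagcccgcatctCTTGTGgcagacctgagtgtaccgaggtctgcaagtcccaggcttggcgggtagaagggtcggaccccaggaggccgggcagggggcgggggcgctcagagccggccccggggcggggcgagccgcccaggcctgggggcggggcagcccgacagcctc
All 3 are rich in G and C (70%, 75% and 72%), with 16, 31 and 16 CpG dinucleotides in 200 bases. The medians over RefSeq promoter windows were 53% and 5. A link between base composition and Pol2 was not tested. CACNAG occurred in 30.5% and CACGNG in 20.3% of 32851 RefSeq promoter windows of 200 bases, so these matches are common.

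At Notch1 the Pol2 peak over the start had a fold enrichment of 23.3 (percentile 89.9 in its list, where 100 is the strongest). The H3K4me3 peak just downstream (chr2:26357445-26359298) had a fold of 30.4 in control and 19.9 in KD cells, at percentiles of 83.1 and 78.6, a small difference in rank. H3K4me2 over the start had a fold of 16.7 in control, 28.5 in KD cells and 20.4 in lens. The other annotated starts were poorer: at 26372156 and 26372183 no Pol2, H3K4me3 or lens H3K4me2 was called, and a control H3K4me2 peak of fold 7.70 there had no KD counterpart. A separate Pol2 peak (fold 12.3) with H3K4me2 lay within 2 kb of the start at 26365177, without H3K4me3.

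At Notch2 the Pol2 peak had a fold of 25.6 (percentile 92.6) and H3K4me3 a fold of 35.0 in control and 25.6 in KD cells (percentiles 90.4 and 92.5). Its H3K4me1 island, by contrast, stood at percentile 44.8 in control and 37.8 in KD cells. At Notch3 no Pol2 peak was called at the promoter, and H3K4me3 had a fold of only 9.06 in control and 6.15 in KD cells (percentiles 23.8 and 14.5). H3K4me2 at the Notch3 promoter, in contrast, had a fold of 18.7 in both control and KD cells (percentiles 89.6 and 86.2) and of 19.7 in lens. The Notch3 promoter therefore carried strong H3K4me2, weak H3K4me3 and no called Pol2.

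A second cluster of marks in the Notch3 window lay mostly beyond the 3′ end of the gene and reached into the gene body. Control H3K4me1 formed an island of 20.8 kb with 768 ChIP reads (chr17:32239401-32260200), which by reads stood at percentile 99.8 of 38007 islands. Within it lay 6 Pol2 peaks, with folds of 3.53 to 9.91, and an H3K4me3 peak (chr17:32250725-32251655) had a fold of 15.5 in control and 12.03 in KD cells, larger than that at the Notch3 promoter. The annotation places the start of Gm17276, a long noncoding RNA gene on the plus strand that runs into the Notch3 body (chr17:32250374-32278784), next to that H3K4me3 peak. Lens H3K4me2 over the same start had a fold of 30.5 (percentile 97.7). ChIP signal carries no strand, so regions shared by the 2 genes cannot be assigned to either.

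The 3 ligands each showed a different state. Jag1 (chr2:136907192-136942380), Jag2 (chr12:114146801-114167706) and Dll1 (chr17:15504318-15513836) all lie on the minus strand. Their upstream sequences are shown for the contrast between a Pol2-bearing, an αTN4-unmarked and an H3K4me3-only promoter, at chr2:136942381-136942506, chr12:114167707-114167906 and chr17:15513897-15514096 in that order, with CACGNG in capitals. The Dll1 sequence belongs to the farther upstream of its RefSeq starts and lies inside A930024N18Rik, a long noncoding RNA gene on the opposite strand (chr17:15511964-15516439).
Jag1: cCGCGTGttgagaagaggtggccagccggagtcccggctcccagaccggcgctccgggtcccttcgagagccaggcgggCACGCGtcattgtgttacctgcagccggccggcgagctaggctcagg
Jag2: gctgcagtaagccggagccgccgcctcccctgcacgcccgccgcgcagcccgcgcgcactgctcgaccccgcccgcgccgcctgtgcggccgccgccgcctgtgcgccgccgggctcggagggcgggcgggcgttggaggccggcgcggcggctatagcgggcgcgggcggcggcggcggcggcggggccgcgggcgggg
Dll1: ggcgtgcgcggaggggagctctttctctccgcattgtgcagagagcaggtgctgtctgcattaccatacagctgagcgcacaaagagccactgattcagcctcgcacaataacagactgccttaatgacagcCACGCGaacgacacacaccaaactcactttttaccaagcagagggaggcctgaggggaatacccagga
The unmarked Jag2 promoter was the richest in CpG of all those printed, with 42 CpG in 200 bases and 86.5% G and C. The printed Dll1 sequence had 9 and 55%. The 200 bases upstream of the other Dll1 RefSeq start, nearer the annotated start used for the calls, had 20 and 67.5%. No Hes and Hey box occurred in the Jag2 sequence, nor TGGGAA, the core bound by Rbpj, which says only that those letters are not in this window. The Dll1 window also held TGANTCA, the AP-1 motif, found in 5.48% of RefSeq windows.

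Jag1 had the strongest Pol2 peak of the 10 promoters (fold 31.8, percentile 96.9). Its H3K4me3 peak was 3.11 kb wide in control cells, wider than 99.3% of the list, with a fold of 31.7 in control and 19.9 in KD cells (percentiles 85.5 and 78.6). Promoter H3K4me2 had a fold of 25.2 in control, 31.9 in KD cells and 19.6 in lens. Pol2, H3K4me2, H3K4me3 and lens H3K4me2 thus placed Jag1 between percentiles 78.5 and 99.4.

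At Jag2 neither line had a Pol2, H3K4me1, H3K4me2 or H3K4me3 region within 2 kb of the start, and no αTN4 region was called in the gene body. Newborn lens had 3 H3K4me2 peaks there, with folds of 18.96, 9.22 and 11.3. The αTN4 marks in the Jag2 window lay nearest to the starts of its neighbours Gpr132, Gm17723, Nudt14 and Btbd6, some of them at Gm17274, a noncoding gene that starts at -21.02 kb from Jag2 (negative values are upstream).

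At Dll1 no Pol2 was called at the promoter, and H3K4me3 was weak, with folds of 6.09 and 8.95 for its 2 control peaks and of 10.8 for the 1 KD peak, which overlapped the stronger of them. H3K4me2 over the promoter had a fold of 17.6 in control and 32.3 in KD cells, moving from percentile 86.9 to 99.5 of its list. Notch1 moved similarly, from percentile 84.8 to 98.2, and neither difference has a replicate check. In lens the Dll1 promoter H3K4me2 peak was 6.34 kb wide, wider than 99.7% of the lens list, with a fold of 19.96. The noncoding gene A930024N18Rik starts 0.976 kb downstream of the Dll1 start. The same H3K4me3 and H3K4me2 peaks lay within 2 kb of its start, so they cannot be assigned to either gene.

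Rbpj (chr5:53947018-54048684, plus strand) has 3 annotated starts. The sequence upstream of the start at 53981454 (chr5:53981335-53981453) is shown because it carries a match to the core that the Rbpj protein itself binds, TGGGAA, in capitals.
Rbpj: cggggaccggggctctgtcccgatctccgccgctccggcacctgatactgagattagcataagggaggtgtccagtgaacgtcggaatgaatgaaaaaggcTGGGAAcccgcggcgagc
A second match on the other strand lay at -65 to -60 from the first RefSeq start, and no other printed promoter held one. TGGGAA occurred in 17.3% of RefSeq windows, and the longer GTGGGAA, which was not found here, in 4.28%. Pol2 over this start had a fold of 10.5 (percentile 53.2). H3K4me3 formed 4 peaks in control cells, the strongest with folds of 26.5 and 21.2, and 3 peaks in KD cells with a highest fold of 15.3. In rank the strongest promoter peak, which was not the same one in both lines, went from percentile 75.03 in control to 59.9 in KD cells. H3K4me2 had a fold of 20.2 in control, 23.0 in KD cells and 31.9 in lens, where it stood at percentile 98.6. The far upstream start at 53947018 had only weak control H3K4me1 and H3K4me2 (folds 3.55 and 4.03), and no region in KD cells or lens.

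The 3 target repressor genes ran from heavily to not at all marked in αTN4. Hes1 (chr16:30064470-30067882, plus strand) had a Pol2 peak of fold 22.01 (percentile 88.2) at its start. H3K4me3 over Hes1 was broad, 2.25 kb and wider than 96.6% of the control list, with a fold of 17.4 in control and 11.8 in KD cells (percentiles 49.8 and 43.7). Promoter H3K4me2 of Hes1 had a fold of 16.0 in control, 18.1 in KD cells and 28.2 in lens. Hes1 had no H3K4me1 island within 2 kb of its start in either line. Within 5 kb it had an island in both lines, and the control island ended at -2.03 kb, so this state rests on the 2 kb limit.

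Hey1 (chr3:8663362-8667039, minus strand) had the weakest Pol2 peak of the 6 promoters with one (fold 4.23, percentile 10.3), although its H3K4me2 stood near the top of the list (fold 22.6, percentile 96.3 in control, and 29.5, percentile 98.7 in KD cells). H3K4me3 at Hey1 had a highest fold of 24.2 in control and 13.0 in KD cells (percentiles 68.8 and 49.5). Heyl (chr4:122910799-122927118, plus strand) had no αTN4 region at its promoter, and the αTN4 H3K4me2 in its window lay at Pabpc4, a neighbour. In newborn lens Heyl had promoter peaks of fold 16.9 and 5.35 and further H3K4me2 peaks through the gene body. The 3 repressors were thus all marked in lens and differed in αTN4.

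By percentile, H3K4me3 at the strongest promoter peak was lower in KD than in control cells at Notch1, Notch3, Jag1, Rbpj, Hes1 and Hey1 and higher at Notch2 and Dll1. Across the windows 19 of 23 control H3K4me3 peaks (82.6%, 62.9 to 93.0%) overlapped a KD peak, beside 89.9% of the whole list. The median change in percentile of the 19 was -1.10, against -1.92 for the whole list. Of the 23 peaks 7 lay nearest to the start of a neighbouring gene, so this median does not describe the Notch genes alone. The 4 control H3K4me3 peaks with no KD counterpart lay beside other peaks that did have one at Dll1, Rbpj and Hey1, and at Btbd6 in the Jag2 window.

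**Figure D2:**
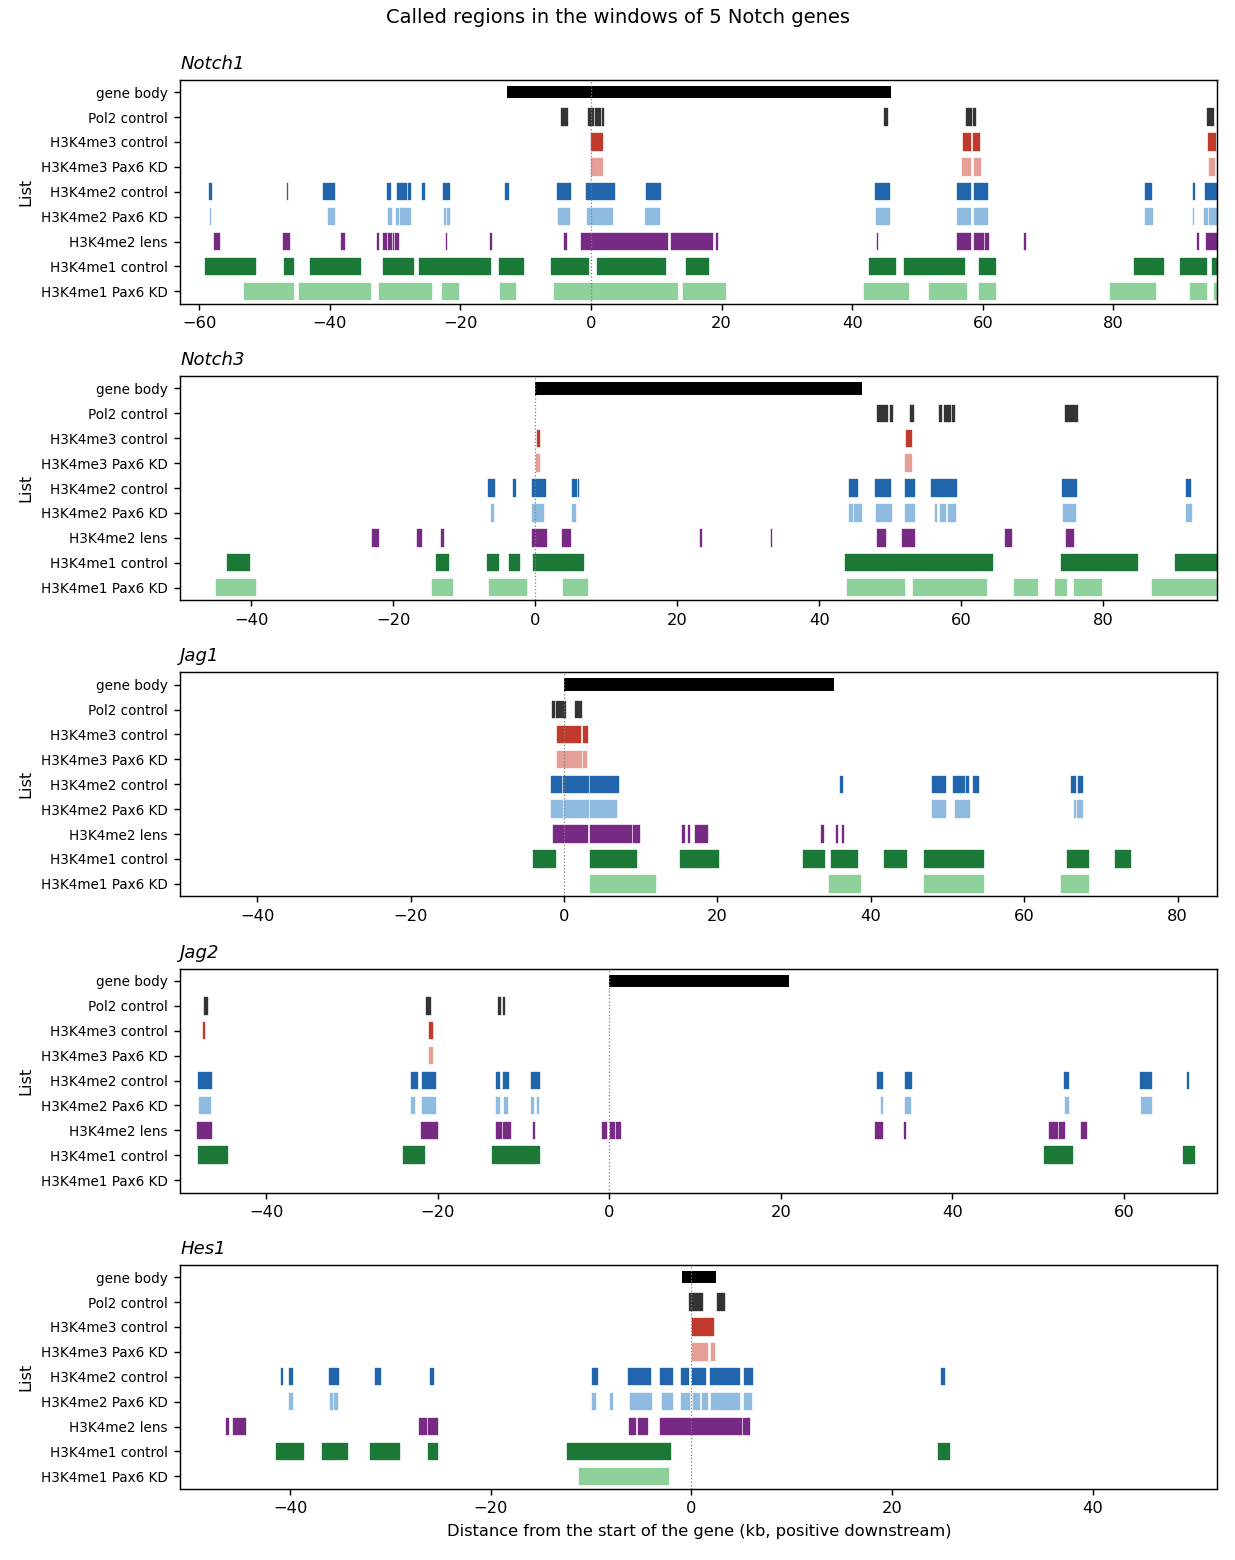
Regions called in each list along the windows of Notch1, Notch3, Jag1, Jag2 and Hes1, plotted by distance from the start of the gene in kb (positive downstream), with the gene body in black. The KD H3K4me1 track is empty for Jag2 and holds 1 island for Hes1, while every control island of Notch1 and Notch3 has a KD counterpart.

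The H3K4me1 lists of control and KD cells were compared next. Promoter H3K4me1 was called in 7 of 10 genes in control and 5 of 10 in KD cells, beside 36% and 16.8% of all genes. In control the same 7 also had H3K4me2 and H3K4me3 there, beside 28.3%. Jag1 and Hey1 had it in control only (2 of 10), beside 20.4% of all genes, and none of the 10 had it in KD only (1.11% of all genes). Over genes with a control island this was 2 of 7, beside 56.5% of all such genes. The KD count depended on the definition, from 1 with 50% overlap and 2 within 1 kb of a start to 7 within 5 kb. Within 5 kb Jag1 had an island in both lines, and within 1 kb or with 50% overlap it had none in control, so its control-only state rests on the 2 kb limit. The Jag1 island upstream of the start held 46 ChIP reads, and the 2 Hey1 islands held 38 and 34. Among the 54 other pathway genes 28 (51.9%) had promoter H3K4me1 in control and 12 (22.2%) in KD cells, beside 36% and 16.8% of all genes. In 16 (29.6%) it was called in control only, beside 20.4%. Over pathway genes with a control island this was 16 of 28, beside 56.5% of all such genes, so this share is near the background. Of the 16, the most control reads were at Neurl2 (141 reads), an E3 ligase of the Neuralized family, and Kat2a (94), a histone acetyltransferase. Then followed Hes6 (89), a Hes family member that opposes Hes1, Ctbp1 (71), a corepressor, and Spen and Hes7, tied at 60.

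Over the 10 windows the control list held 74 H3K4me1 islands covering 337 kb and the KD list 46 islands covering 271 kb. Of the 74, 44 (59.5%, 48.1 to 69.9%) overlapped a KD island, beside 46.2% of all 38007 control islands and 52.2% when the list is weighted to the same terciles of reads. The interval includes the read-matched value. It treats islands as independent, although islands of the same window tended to share their state, so nothing is concluded from it. In the opposite direction 42 of 46 KD islands (91.3%) overlapped a control island, beside 93.1% of the list. For H3K4me2 this was 88 of 90 (list 92.7%) and for H3K4me3 20 of 20 (97.3%).

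This share was uneven among the genes. All 15 control islands in the Notch1 window and all 8 in the Notch3 window overlapped a KD island, and 8 of 10 did so at Notch2. Of these, 8 of the 15 at Notch1 and 4 of the 8 at Notch3 lay nearer to the start of a neighbouring gene, as did all 5 at Jag2. At Rbpj 6 of 11 control islands overlapped a KD island, at Jag1 4 of 9, at Dll1 2 of 7 and at Hes1 1 of 6. None of the 5 islands of the Jag2 window or of the 3 of the Hey1 window did, and the Heyl window held no control island.

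Island strength moved with this difference. The 44 islands with a KD counterpart held 39 to 768 control ChIP reads (median 100) and the 30 without held 28 to 105 (median 50.5). Over the whole list the medians were 92 and 47. In the highest tercile of reads (79 or more) 28 of 31 islands of the windows overlapped a KD island, beside 84.0% of the list, and in the lowest (48 or fewer) 5 of 19, beside 16.7%. At Notch1 and Notch3, however, islands with as few as 39 and 43 reads had a KD counterpart, and at Jag2 and Rbpj islands with 87 and 105 reads had none. Input reads in the control islands also differed, with 102 over 16.4 kb at Jag2 and 157 over 21 kb at Hes1. Notch1 had 1404 over 85.8 kb, and Dll1, where most islands had no KD counterpart, had 296 over 18.6 kb. The parts of island strength and of local input in the difference between genes were not tested beyond these counts.

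**Figure D3:**
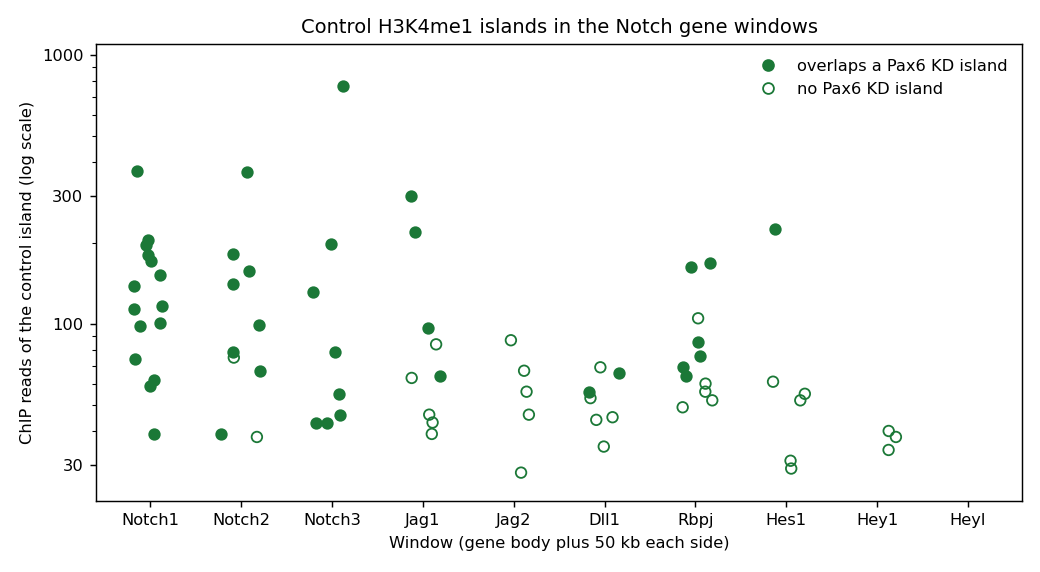
ChIP reads (log scale) of the 74 control H3K4me1 islands in the windows of the 10 genes, filled where a Pax6 KD island overlaps and open where none does. The islands of Notch1 and Notch3 are all filled, those of Jag2 and Hey1 are all open, and the filled island of Hes1 holds 225 reads against 61 or fewer for its open ones.

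At Hes1 the island with a KD counterpart was the one nearest the gene, from -12.4 to -2.03 kb (chr16:30053001-30063400), with 225 reads in control and 147 in the KD island. The 5 others, 4 of them between -41.4 and -25.2 kb and one 24.6 kb downstream, held 29 to 61 reads. At Jag1 the island in the first part of the gene body, 3.38 to 9.58 kb from the start, held 220 control reads over 6200 bp, and its KD counterpart 218 reads over a longer 8600 bp, a relative log2 change in reads per kb of -0.17. A distal Jag1 island 47.0 to 54.8 kb downstream of the start, past the 3′ end, held 298 control and 193 KD reads over the same span (chr2:136887601-136895400). The Jag1 islands with and without a KD counterpart were interspersed. At Notch1 the island with the most reads (chr2:26347801-26358400) held 372 in control and overlapped a KD island of 455 reads that also overlapped the next control island. At Dll1 the promoter island had 66 control reads and its KD counterpart 49. In the Jag2 window the control island next to Gm17274 (-24.1 to -21.5 kb) had a fold of 23.8, percentile 99.99 of the list, from 67 ChIP reads over 6 input reads, and had no KD counterpart.

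Read density was compared at the islands found in both lines. ChIP reads per kb in KD over control had a median log2 ratio of -0.32 over all 17559 kept islands of the genome, uncorrected for library size, and changes are given relative to it. Each density was taken over the span of the line's own islands, so the ratio also depends on island extent. A KD island could count for more than 1 control island. The 44 kept islands of the windows had a median relative change of 0.04 (quartiles -0.16 and 0.24), with 20 of 44 below 0. Per gene the medians were 0.12 for Notch1 (15 islands), 0.13 for Notch2 (8), 0.04 for Notch3 (8), -0.24 for Jag1 (4) and -0.14 for Rbpj (6). The quartiles of all kept islands were -0.22 and 0.23, a spread of single islands that is wider than that of medians. Dll1 (2 islands) stood at 0.18 and Hes1 (1 island) at -0.09.

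H3K4me2 in KD cells overlapped more of the control regions than H3K4me1 did. Of 98 control H3K4me2 peaks in the windows 78 (79.6%, 70.6 to 86.4%) overlapped a KD peak, beside 82.5% of the list. The share was 10 of 11 in the Jag2 window, where no H3K4me1 island was called in KD cells, and 9 of 13 at Hes1. Of the 30 control H3K4me1 islands without a KD counterpart, 21 overlapped control H3K4me2 and 15 of those 21 (71.4%) still overlapped H3K4me2 in KD cells, beside 87.9% for such islands of the whole list. The median change in percentile of the 78 was -0.13, against -1.85 for the list.

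Away from promoters of protein-coding genes, 69 control H3K4me2 peaks lay in the windows, which outlines candidate distal elements. Starts of noncoding genes were not excluded, so peaks within 2 kb of the starts of Gm17276, Gm17274 and Gm13568 are among them. Each of these starts also had a Pol2 peak within 2 kb. Of these 64 (92.8%) overlapped control H3K4me1, beside 72% of distal peaks of the whole list, 53 (76.8%) overlapped KD H3K4me2, beside 76.8%, and 7 (10.1%) overlapped Pol2, beside 8.16%. Lens H3K4me2 overlapped 24 of 69 (34.8%), beside 19.4%. Among genes with distal peaks, Rbpj had the fewest shared with lens, 1 of 12, and Notch1 had 6 of 12. Hey1 and Heyl had no distal αTN4 H3K4me2 peak.

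Newborn lens marked all 10 Notch promoters and a part of the αTN4 regions around them. Over the windows lens had 105 H3K4me2 peaks covering 135 kb and control αTN4 had 98 covering 127 kb. Of the αTN4 peaks 50 (51.0%, 41.3 to 60.7%) overlapped a lens peak, beside 41.3% of the list, and of the lens peaks 48 (45.7%) overlapped an αTN4 peak, beside 45.4%. Of the 57 lens peaks without αTN4 H3K4me2, 22 (38.6%) overlapped control αTN4 H3K4me1, beside 13.9% of such peaks of the whole lens list, among them 6 of 6 at Jag1. The Heyl window held 7 such peaks and no control H3K4me1 island. Control H3K4me1 islands covered 52.0% of the Notch1 window and 26.9% of the Jag1 window. The overlap that such coverage gives by itself was not tested, and peaks in the same island were counted separately. Notch2 had 11 lens peaks without αTN4 H3K4me2, among them a peak of fold 10.3 at 49.5 to 50.7 kb into the gene that overlapped αTN4 H3K4me1.

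Lens domains of unusual width lay at 4 genes. The lens peak over the Notch1 start and first part of the gene (chr2:26347564-26360930) was 13.4 kb wide, wider than 99.99% of 56214 lens peaks, where the widest control αTN4 peak in the window was 4.44 kb. Those at Hes1 (chr16:30062273-30070466), Dll1 (chr17:15509102-15515436) and Jag1 (chr2:136933459-136938929) were 8.19, 6.34 and 5.47 kb wide, wider than 99.9, 99.7 and 99.5% of the list. At Hes1 the lens peak overlapped 4 separate control αTN4 peaks. Covered length was larger in lens than in control αTN4 at Heyl (12.4 against 2.60 kb), Hey1 (6.42 against 3.76 kb), Dll1 (14.9 against 8.85 kb) and Notch1 (32.6 against 25.97 kb), and smaller at Rbpj (6.52 against 17.1 kb) and Notch3 (11.2 against 15.6 kb). Smaller gaps lay at Jag2 (11.1 in lens against 10.2 kb), Hes1 (13.7 against 13.4 kb), Notch2 (12.3 against 14.8 kb) and Jag1 (14.15 against 14.75 kb). The whole lens list covered less than the control αTN4 list (58.9 against 74.3 Mb). In lens, fewer cells with a mark and less of it per cell cannot be told apart.

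**Figure D4:**
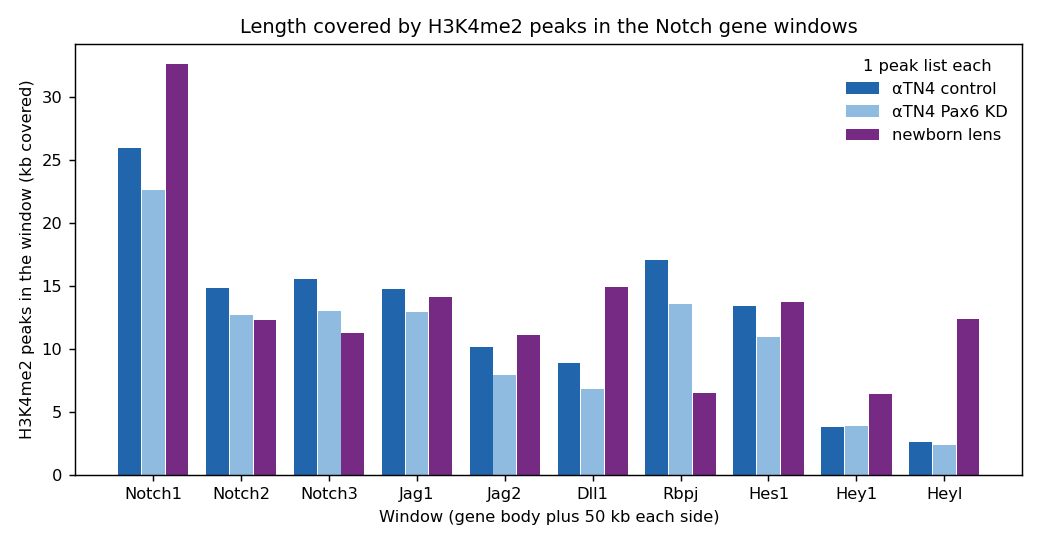
Length in kb covered by H3K4me2 peaks in the window of each of the 10 genes, for control αTN4, Pax6 KD αTN4 and newborn lens (1 list each, so no error bars). Lens reaches 32.6 kb at Notch1 and exceeds control αTN4 also at Jag2, Dll1, Hes1, Hey1 and Heyl. It is below control αTN4 at Notch2, Notch3, Jag1 and Rbpj. The KD bar is below the control bar at every gene but Hey1.

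Covered length in KD was below control at every gene but Hey1, with the widest gap at Rbpj (13.5 against 17.1 kb). The whole KD list also covered less than the control list (63.6 against 74.3 Mb), with almost as many peaks (65852 against 66274). The difference at the Notch genes therefore moved with that of the lists.

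The genes with the pattern most like that of each member were found by the distance between percentiles of the strongest promoter region in the 8 lists other than Pax6, over 22316 genes outside the windows. Notch1 was nearest to Rnh1 and Cttn (distances 14.2 and 15.8 percentile points), Notch2 to Nfkbie and B430305J03Rik (9.56 and 12.1), and Jag1 to Mrpl41 and Pnpla7 (10.2 for both). Rbpj was nearest to Jph1 and 1700049G17Rik (11.6 and 13.4), Hes1 to Ccdc15 and Ctdp1 (7.62 and 7.74) and Hey1 to Lin54 and Bach2 (7.28 and 12.4). Notch3 and Dll1 had more distant neighbours, Tmem37 and Ddn (21.4 and 25.4) and Slc9a9 and Gda (17.3 and 26.7). Their combination of called and uncalled lists was shared with 64 of 22316 genes (0.287%), against 18.1% for that of Hes1 and 10.2% for that of Jag2 and Heyl. The combination of Hes1 depends on the 2 kb limit for H3K4me1. Jag2 and Heyl were described by the lens percentile alone, so many genes matched them and none is named.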

How the data were processed

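ChIP-seq lists of Pax6, Pol2 and 3 H3K4 methylation marks from αTN4 cells and of H3K4me2 from newborn mouse lens were used as deposited, 1 library per condition. Reads had been mapped by the authors with Bowtie to mm9. They called Pax6, Pol2, H3K4me2 and H3K4me3 peaks with MACS2 and H3K4me1 islands with SICER at default settings, and removed blacklisted peaks, per the study's methods. The names of the deposited island lists give a window of 200 bp, a gap of 600 bp and an FDR of 0.001. The deposited MACS2 lists hold a fold enrichment (a ratio over background), a score, and −log10 p and q values, and the deposited SICER lists hold ChIP and control read counts, a fold and p-values. The authors' peak names of the control H3K4me2 list contain "bothreps", so replicates may have been pooled there, and the control library of SICER is not given in the sources used here. MACS2 lists carry no read depth, so their depth is unknown.

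Genes came from GENCODE vM1 on mm9 (22342 protein-coding genes, 51684 transcripts). Windows were the gene body plus 50 kb, promoters were within 2 kb of a start, and 1 bp of overlap counted. Percentiles rank fold enrichment within a list. Changes in H3K4me1 reads per kb compare the overlapping KD islands with the control island, each over its own span. They are given after subtracting the genome-wide median over islands with a KD counterpart. Shares carry 95% Wilson intervals. No test was run, as each ChIP condition used here had 1 list. The 10 genes and the lists were chosen with earlier results of these data known, and the nearest genes in pattern were the 2 with the smallest distance. Other windows, overlaps, starts and stricter lists (−log10 q of at least 5, FDR of at most 1e-06) were tried. Expression data of the series were not analysed here. Overlap code was tested on simulated data. One gene of the wider pathway list is not reported here by name.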

Additional observations from a re-analysis of the deposited data

How the results depend on the processing

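Of 74 alternative values of 15 results, 66 stayed within 1.5 times a count or within the interval of a share, and 8 moved. Promoter H3K4me1 in control was called in 4 of 10 genes when at least 50% of the island had to overlap, against 7. In KD cells it was called in 2 genes within 1 kb, in 3 with the stricter list and in 1 with 50% overlap, against 5. Within gene bodies alone, 76% of 25 control H3K4me1 islands and 92.3% of 26 control H3K4me2 peaks overlapped a KD region, against 59.5% and 79.6% in the windows, and 69.2% of H3K4me2 peaks overlapped lens, against 51.0%. With 50% overlap 69.4% of H3K4me2 peaks had a KD counterpart. The cause of these differences was not tested beyond the narrower definitions themselves. No paired analysis was possible because each condition had 1 library, which also left no replicate to leave out. Called regions depend on depth, and an uncalled region is not shown to lack the mark.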
